A study of Mus musculus with 8 samples.

Results

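Csmd1, Csmd2 and Csmd3 are the 3 mouse genes of the CUB and sushi multiple domains family, each of which encodes a very large transmembrane protein whose extracellular part is a chain of CUB and sushi domains. Sushi domains are the building blocks of the regulators of complement, the protein cascade that tags and lyses microbes and that also marks synapses for removal in the developing brain. CSMD1 is known as an inhibitor of complement and is expressed mainly in the nervous system. The genes themselves are among the longest in the genome and consist almost wholly of intron. N6-methyladenine (6mA) is a methylated base that is common in bacterial DNA and whose presence and amount in mammalian DNA are debated.

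The members were chosen from measured values of the same lists: every peak to which the authors had given one of the 3 gene symbols was taken, each peak and symbol once. This gave 148 peaks of the 90798 in 8 peak lists, of which 21 were in brain lists and 127 in cell lists. Because the symbol was part of the selection, the number of peaks per gene is given as a description and is not tested. A second count used coordinates alone, that is, every peak whose midpoint lay between the ends of the gene, whatever symbol it carried. It gave 124 peaks, 37 in brain and 87 in cells, and 102 peaks were in both counts.

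The study enriched 6mA-bearing DNA with an antibody (6mA MeDIP-seq) in mouse embryo brain and in Sv/129 mouse embryonic stem cells (mESCs). The NTD group held brains of embryos with neural tube defects from dams on a low folate diet that were injected with methotrexate (MTX), a folate antagonist, at 1.5 mg/kg on gestational day 7.5. The control group, CON, held brains of embryos with closed neural tubes and is labelled as treated with normal saline; the labels do not say what diet its dams had. Embryos of both groups were examined between E9.5 and E10.5. Each brain group had 3 immunoprecipitations with 1 peak list each, and nothing in the labels says whether these came from separate embryos, so the spread between lists may be technical. The 3 lists of a brain group were called against the same input, 1 per group, which means that a difference between groups and one between their inputs cannot be told apart in the brain comparisons, and the SDs and p-values over the lists do not include the spread between inputs. The FA0 cells were grown without folate and the FA4 cells in the same medium with folate at 4 mg/L, with 1 peak list per condition and therefore no replicate check. The strain of the mice is not given in the labels, and the headers call the NTD lists Case and the CON lists Control.

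The brain lists held from 2797 peaks (CON 1) to 7100 peaks (NTD 3), the FA0 list 38699 and the FA4 list 20186. Most peaks were weak: the median peak rested on 8 or 9 tags in every list, the authors' p-value was at most 0.01, and between 95.3% and 99.2% of the peaks of a list had a q-value above 0.05. Read totals were not used here, so intervals cover the counting of peaks only.

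Csmd1 (gene ID 94109) spans 1.64 Mb of the minus strand of chromosome 8, from 15892538 to 17535385 in mm10, which is 1.30% of the part of the chromosome that was counted. Csmd2 (gene ID 329942) spans 0.581 Mb of the plus strand of chromosome 4, from 127986505 to 128567660. Csmd3 (gene ID 239420) spans 1.21 Mb of the minus strand of chromosome 15, from 47580638 to 48792558. Several shorter genes lie inside them. Among them is the protein-coding gene C030002A05Rik in Csmd1, of 138762 bases. It overlapped 10 of the peaks inside Csmd1, and none was given to it. Csmd1 holds the long noncoding RNA genes Gm16347 and Gm39136 and the microRNA gene Mir3106 among others, and Csmd2 holds the noncoding Csmd2os, Hmgb4os and Gm33656 and the coding gene Hmgb4.

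In embryo brain, Csmd1 carried its own symbol at 0, 5 and 6 peaks in the 3 NTD lists and at 0, 0 and 0 peaks in the CON lists. By coordinates, the gene held 3, 4 and 6 peaks in NTD 1, 2 and 3 against 4, 5 and 1 in CON 1, 2 and 3, so the groups overlapped and their means were 4.33 ± 1.53 and 3.33 ± 2.08 peaks (SD, n = 3). The ratio of these means was 1.3, and it turned to 0.963 without CON 3, to 0.8 with all lists cut to the length of the shortest by fold, and to 0.910 as a share of the chromosome 8 peaks. The CON lists had 10 peaks inside Csmd1, none of which was given to Csmd1. All 10 of them, and all 3 of NTD 1, were called intergenic in the lists and given to genes nested within Csmd1.

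The nested genes that received these 13 peaks were Gm16347 with 8, Gm39136 with 3 and Mir3106 with 2. Their start sites lay 18.3 to 426 kb from the peaks, with a median of 90.3 kb. In NTD 2 and NTD 3, all 10 peaks inside Csmd1 were given to Csmd1. The choice was therefore all or none within a list, and it did not follow the group, since NTD 1 was annotated as the CON lists were.

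A single place in the gene shows the difference directly. NTD 1 had a peak at 16506226 to 16506437 on chromosome 8 with 9 tags and 3.21-fold enrichment over input, and NTD 3 had a peak at 16506224 to 16506457 with 6 tags and 2.19-fold enrichment. They share 212 bases, 1029 kb from the gene start. The NTD 1 peak was given to Gm16347 and the NTD 3 peak to Csmd1.

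**Figure D1:**
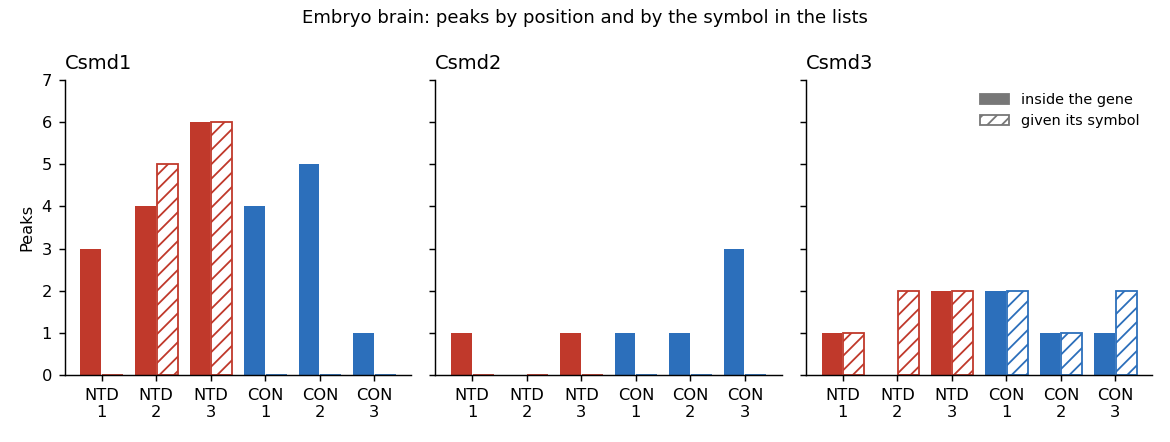
Number of brain peaks of each gene in each list. Solid bars count peaks whose midpoint lies inside the gene, and hatched bars count peaks that carry its symbol in the deposited list. For Csmd1 the hatched bars are at 5 and 6 in NTD 2 and NTD 3 and at 0 in the other lists, whereas the solid bars run from 3 to 6 in NTD and from 1 to 5 in CON.

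Csmd2 was never named in a brain list, whereas by coordinates it held 1, 0 and 1 peaks in NTD against 1, 1 and 3 in CON (means 0.667 ± 0.577 and 1.67 ± 1.15, SD, n = 3). The 7 peaks carried the symbols Gm33656 (3 peaks), Csmd2os (2 peaks) and Hmgb4os (2 peaks), and all were called intergenic. The ranges of the groups touch at 1 peak.

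Csmd3 was the exception, as each of the 7 brain peaks inside it carried its symbol. It held 1, 0 and 2 peaks in NTD against 2, 1 and 1 in CON (means 1.00 ± 1.00 and 1.33 ± 0.577, SD, n = 3). A further 2 peaks of NTD 2 and 1 of CON 3 carried the symbol but lay beyond the annotated end of the gene, so that by symbol the counts were 1, 2 and 2 against 2, 1 and 2. By either count the groups overlapped, and the ratio of NTD to CON inside the gene, 0.75, turned to 1.13 without NTD 2.

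The 3 genes together held 5, 4 and 9 peaks in NTD against 7, 7 and 5 in CON by coordinates (6.00 ± 2.65 and 6.33 ± 1.15, SD, n = 3). The ratio of 0.947 turned to 1.03 without NTD 1 and to 1.11 without NTD 2. By symbol the numbers were 1, 7 and 8 against 2, 1 and 2. The difference between the groups in the symbol counts came from Csmd1 in NTD 2 and NTD 3. The number of peaks inside the gene was above every CON list in all NTD lists for 1.16% of the 5958 protein-coding genes with a brain peak, and below every CON list in all NTD lists for 0.302%. None of the 3 Csmd genes was among them. Both shares are unadjusted for the unequal lengths of the lists.

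Other long genes also had peaks inside them under other symbols. Over the 227 protein-coding genes of at least 0.5 Mb, 62.4% (CON 1) to 76.0% (NTD 1) of the brain peaks inside a gene carried that gene's symbol, against 90.5% in FA0 and 89.0% in FA4. Among those with at least 2 peaks in a brain list, 79.2% (CON 2) to 90.1% (CON 3) had either every peak or no peak under their own symbol. The cell lists had 72.4% (FA0) and 82.1% (FA4). In NTD 1, 71 of 106 such genes had every peak under their own symbol and 17 had none. With few peaks per gene either outcome can arise by counting, and a choice made list by list was not tested over these genes. Of 14369 symbols with a brain peak, 72 had at least 5 NTD peaks and no CON peak, as Csmd1 did, and 9 had the reverse. These numbers are not adjusted for list length. NTD 1, 2 and 3 held 5790, 5620 and 7100 peaks, against 2797, 6614 and 3992 in CON 1, 2 and 3. The transcripts named for a gene also changed from list to list: Csmd3 was represented by a curated RefSeq transcript in CON 1, by a predicted one in CON 2, CON 3, NTD 1 and NTD 2, and by both in NTD 3.

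Set against their chromosomes, the members were not uniformly dense or sparse in brain. Csmd1 had 1.83, 2.43 and 3.65 peaks per Mb in NTD 1, 2 and 3 and 2.43, 3.04 and 0.609 in CON 1, 2 and 3, and the rest of chromosome 8 had 2.54, 2.58 and 3.06 in NTD and 1.40, 2.74 and 2.01 in CON. Divided by the rest of its chromosome, Csmd1 stood at 0.953 ± 0.237 over the NTD lists and 1.05 ± 0.722 over the CON lists (SD, n = 3). For Csmd2 the ratio was 0.389 ± 0.338 and 1.48 ± 1.02, and for Csmd3 0.356 ± 0.333 and 0.858 ± 0.780, in both cases with overlapping lists. Each of these ratios rests on 0 to 6 peaks a list. In every brain list except CON 3, where 1 peak was found, the 95% exact (Clopper-Pearson) interval of the Csmd1 ratio ran from below 0.5 to above 2, and in CON 3 it ran from 0.00765 to 1.71.

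**Figure D2:**
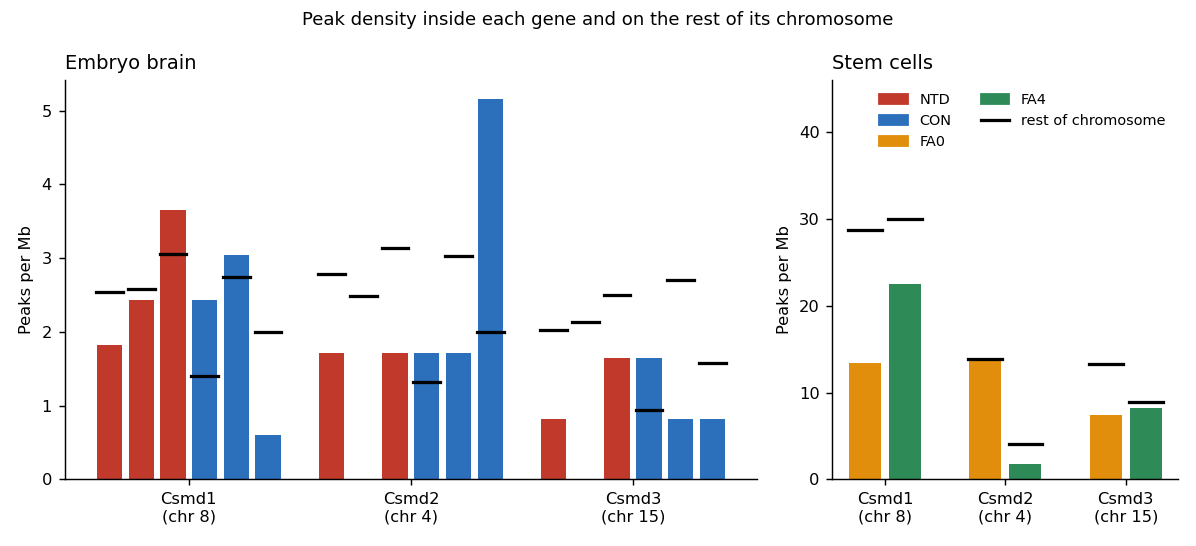
Peaks per Mb inside Csmd1, Csmd2 and Csmd3 (bars, 1 per list, in the order NTD 1 to 3, CON 1 to 3 on the left and FA0, FA4 on the right) and on the rest of the same chromosome (black lines). In stem cells Csmd1 stands below the line of chromosome 8 in both lists, at 13.4 and 22.5 against 28.7 and 30.0 peaks per Mb; the vertical scales of the panels differ.

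The brain peaks inside the 3 genes were weak ones. They had 6 to 11 tags, 2.05- to 3.21-fold enrichment over input, and a q-value of 1 in all 37 cases. Their mean width was 232, 258 and 261 bases in NTD and 248, 361 and 276 bases in CON (250 ± 15.8 and 295 ± 59.1, SD, n = 3). The difference of −44.8 bases was not larger than the spread between lists (exact permutation test, two-sided p = 0.3, where 0.1 is the smallest that 3 lists against 3 can give). Over all peaks of a list the mean width was 266 ± 2.51 bases for NTD and 284 ± 0.791 bases for CON, without overlap (difference −18.0 bases, exact permutation p = 0.1). The narrowest peak of a list differed as well, at 205, 208 and 205 bases in NTD 1, 2 and 3 and 220, 217 and 221 in CON 1, 2 and 3. The part of this lower limit in the width difference was not tested.

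The share of brain peaks in the first 50% of the gene, counted from its start, was 0%, 50% and 55.6% in NTD against 85.7%, 42.9% and 40% in CON (35.2 ± 30.6% and 56.2 ± 25.6%, SD, n = 3). These lists overlapped as well (difference −21.0 percentage points, exact permutation p = 0.6), and the difference shrank to −3.41 points without NTD 1 and to −6.24 without CON 1. None of the 3 genes had a brain peak that the lists class as promoter or exon. Of all peaks in a brain list, 6.24% to 7.29% had a promoter entry. At so small a share, the lack of one among 37 member peaks is not read as a difference. The exon share over all peaks is not given here.

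In the stem cells, Csmd1 held 22 peaks in FA0 and 37 in FA4, or 13.4 and 22.5 peaks per Mb. Both densities were below that of the rest of chromosome 8, which had 28.7 and 30.0 peaks per Mb. The ratio of gene to rest was 0.466 in FA0 (95% exact interval 0.292 to 0.707) and 0.751 in FA4 (0.528 to 1.04). Chromosome 8 as a whole was the denser background here: the whole FA0 list averaged 14.6 and the whole FA4 list 7.59 peaks per Mb, to which Csmd1 stood at 0.920 and 2.97 times. Measured against the genome, Csmd1 in FA4 was thus peak-rich, and measured against its chromosome it was not.

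Csmd2 held 8 peaks in FA0 and 1 in FA4, or 13.8 and 1.72 per Mb, beside 13.8 and 4.06 on the rest of chromosome 4. Its ratio to the chromosome was 0.996 (0.430 to 1.97) in FA0 and 0.423 (0.0107 to 2.37) in FA4. Csmd3 held 9 peaks in FA0 and 10 in FA4, or 7.43 and 8.25 per Mb, beside 13.3 and 8.87 on the rest of chromosome 15. Its ratio was 0.558 (0.255 to 1.06) and 0.930 (0.445 to 1.72). For both genes all 4 intervals include 1, and they cover counting error only.

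Taken as a share of its list, Csmd1 was 3.22 times higher in FA4 than in FA0 (95% exact interval 1.85 to 5.74). Its share of the peaks relative to the rest of chromosome 8 was 1.61 times higher, with an interval of 0.926 to 2.87 that includes 1, since the rest of that chromosome itself took a 2.00 times larger share of the FA4 list. Csmd3 was 2.13 times higher by share of list (0.778 to 5.92) and 1.67 times higher against its chromosome (0.609 to 4.64). Csmd2 went the other way, at 0.240 (0.00540 to 1.79) and 0.425 (0.00958 to 3.17), on 9 peaks in all. With 1 list per condition these ratios compare 2 lists, not 2 conditions.

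Shifts of at least 1.5 times were common in both directions. The number of genes past the 3.22 of Csmd1 was counted on chromosome 8 only. Of the 369 protein-coding genes with at least 10 peaks in the cell lists together, 30.1% had a share at least 1.5 times higher in FA4 and 29.8% a share at least 1.5 times higher in FA0. On chromosome 8, 40 of 59 such genes (67.8%) were higher in FA4, with a median ratio of 2.08. Csmd1 lay above that median, with 11 of the other chromosome 8 genes at a larger ratio and 47 at a smaller one. On chromosome 15, 7 of 15 genes including Csmd3 were past 1.5 in favour of FA4, with a median ratio of 1.37. On chromosome 4, 7 of 14 genes were past 1.5 in favour of FA0; Csmd2 had too few peaks to be counted among them.

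The input behind the peaks differed at Csmd1 as well. The deposited fold was read as the ratio of tags to background after 1 is added to each, and the background at each peak was recovered on that reading, which gave most peaks of every list a single lowest value. The tag count may be a height at the summit and not all tags of the peak, in which case the background is on that scale too. In FA4, 32 of the 37 Csmd1 peaks (86.5%) had a background over 1% above that common value of 1.86 tags, with a median of 2.31 and a highest value of 3.59. In FA0, 3 of the 22 (13.6%) were raised above the common value of 2.12 tags. On chromosome 8 the raised share was 84.6% in FA4 and 51.2% in FA0, and over all peaks 39.8% and 35.4%. Csmd1 in FA4 was therefore like its chromosome in this respect, and in FA0 it had a smaller raised share than its chromosome.

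The other members had little of this. In FA4 the background was raised at 1 of 10 Csmd3 peaks and at the Csmd2 peak not at all, and in FA0 at 1 of 9 and 1 of 8. When only peaks at the common background were counted, an alternative added after the data had been seen, the Csmd1 share of list in FA4 was 0.542 times that in FA0 in place of 3.22 times. That ratio rests on 19 Csmd1 peaks in FA0 and 5 in FA4. The change was not particular to Csmd1: chromosome 8 kept 1756 of its 3602 FA0 peaks and 583 of its 3774 FA4 peaks. The whole lists kept 25011 of 38699 and 12150 of 20186. The part of the background in the number of peaks was not tested.

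**Figure D3:**
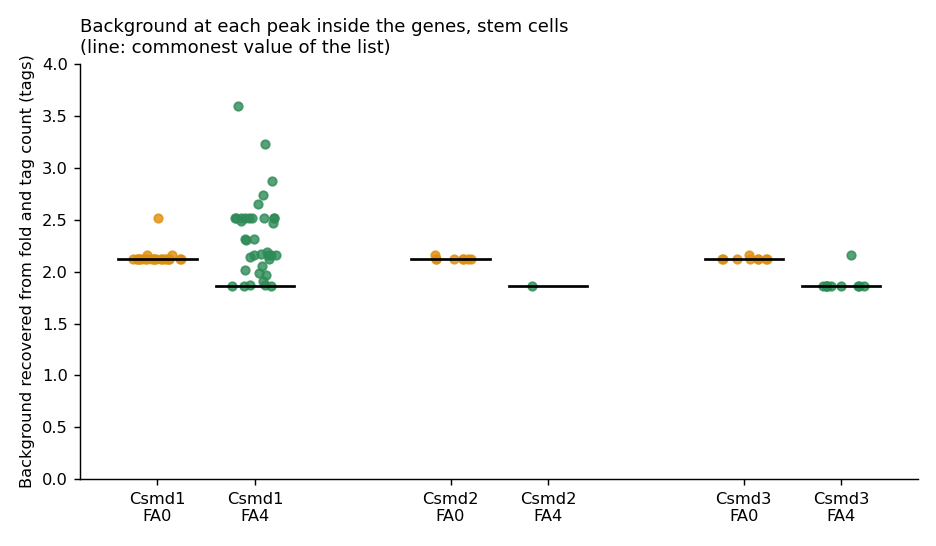
Background, in tags, recovered from the deposited fold and tag count at each stem cell peak inside the 3 genes (points, spread sideways for legibility), with the commonest value of the list as a line (2.12 in FA0, 1.86 in FA4). Csmd1 in FA4 is the only column in which most points lie above the line, 32 of 37.

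The sequence around Csmd1 differed between the cell lists too. In the 500 kb before its start, FA0 had 2 peaks and FA4 had 21, or 4 and 42 per Mb. In the 500 kb beyond its end there were 2 and 9. Of 126 windows of 1 Mb along chromosome 8, with a median of 29 peaks in both lists, 11 in FA0 and 12 in FA4 had fewer peaks than the density inside Csmd1. In FA4, 5 windows had more than the 42 per Mb before the gene start, and in FA0, 125 windows had more than the 4 per Mb there. These 2 values rest on 500 kb and the windows on 1 Mb, so the ranks do not compare like with like.

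These outer peaks enlarged the counts by symbol. The lists gave Csmd1 25 peaks in FA0 and 58 in FA4, of which 3 and 21 lay before the gene start and none beyond the end. Among these outer peaks were the only ones of Csmd1 with a q-value of at most 0.05, both in FA4. The first, classed as upstream, lay at 17538396 to 17538661, 3.14 kb before the start, with 11 tags, 4.13-fold enrichment and a q-value of 0.0307. The second lay at 17990657 to 17990913, 455 kb before the start, with 11 tags, 4.07-fold enrichment and a q-value of 0.0330. Their backgrounds, 1.91 and 1.95 tags, were raised above the common FA4 value of 1.86. So were those of most of the 21 FA4 peaks before the start, unlike most of the 3 in FA0. The part of the background in these numbers was not tested.

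**Figure D4:**
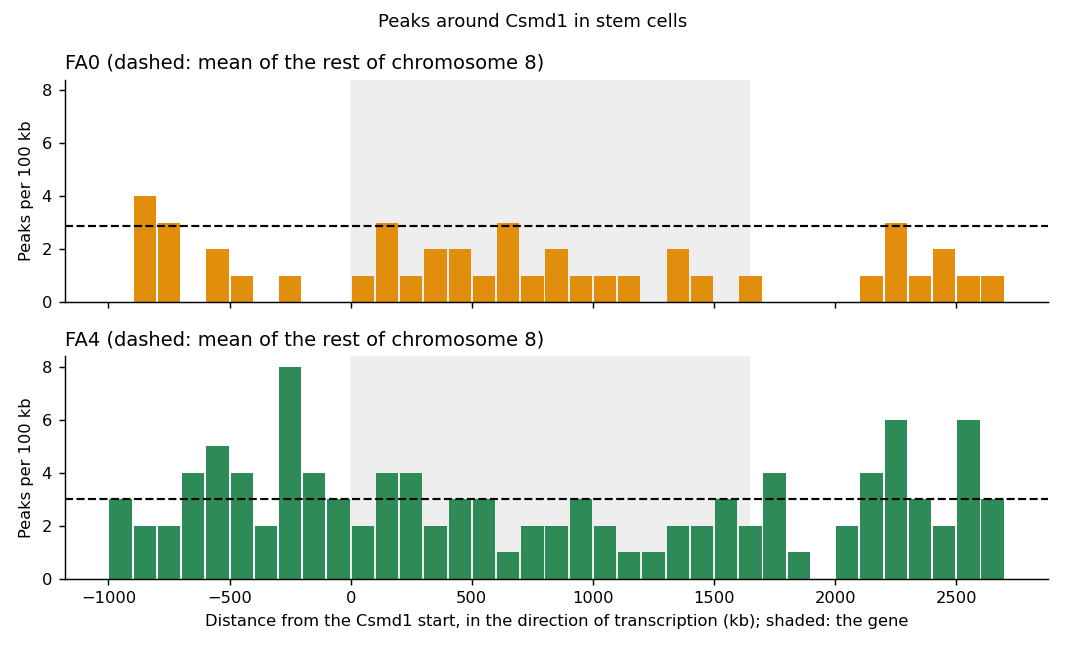
Stem cell peaks per 100 kb from 1000 kb before the start of Csmd1 to beyond its end, read in the direction of transcription (shaded: the gene; dashed: mean of the rest of chromosome 8). FA0 has 2 peaks and FA4 has 21 in the 500 kb before the start, and both stay mostly at or under the dashed line inside the gene.

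Csmd3 also drew outer peaks, 9 in FA0 and 9 in FA4, all before its start. In contrast to Csmd1, the 500 kb before the Csmd3 start held 5 peaks in each list and the 500 kb beyond its end 3 in each. Csmd2 had 6 and 1 before its start and 3 and 0 beyond its end. The 7 Csmd2 peaks of the FA0 list that carried its symbol all lay inside it, and the FA4 list gave it none.

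Along Csmd1 the cell peaks were spread over the gene. In FA0 they ran from 80.5 to 1481 kb from the start, with a median gap of 60.7 kb and a largest gap of 183 kb. In FA4 they ran from 14.9 to 1535 kb, with a median gap of 34.2 kb and a largest of 114 kb. The first 50% of the gene held 14 of 22 peaks in FA0 (63.6%) and 21 of 37 in FA4 (56.8%).

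Csmd3 was less evenly covered. Its FA0 peaks ran from 3.31 kb to 1066 kb, but none lay between 226 and 863 kb, a gap of 637 kb. The FA4 peaks ran from 48.6 to 1052 kb, with a largest gap of 315 kb between 429 and 744 kb. That gap falls within the FA0 gap, but the FA0 gap was not empty in FA4. It held FA4 peaks at 261, 284, 429, 744 and 830 kb. Brain peaks lay there too, in CON 3 at 413 kb, in CON 1 at 454 kb and in CON 2 at 671 kb, the last within the FA4 gap. The first 50% of the gene held 6 of 9 peaks in FA0 and 5 of 10 in FA4. In Csmd2, 6 of the 8 FA0 peaks lay in the second 50%, and 5 of them between 435 and 549 kb from the start of this 581 kb gene; the FA4 peak lay 146 kb from the start.

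**Figure D5:**
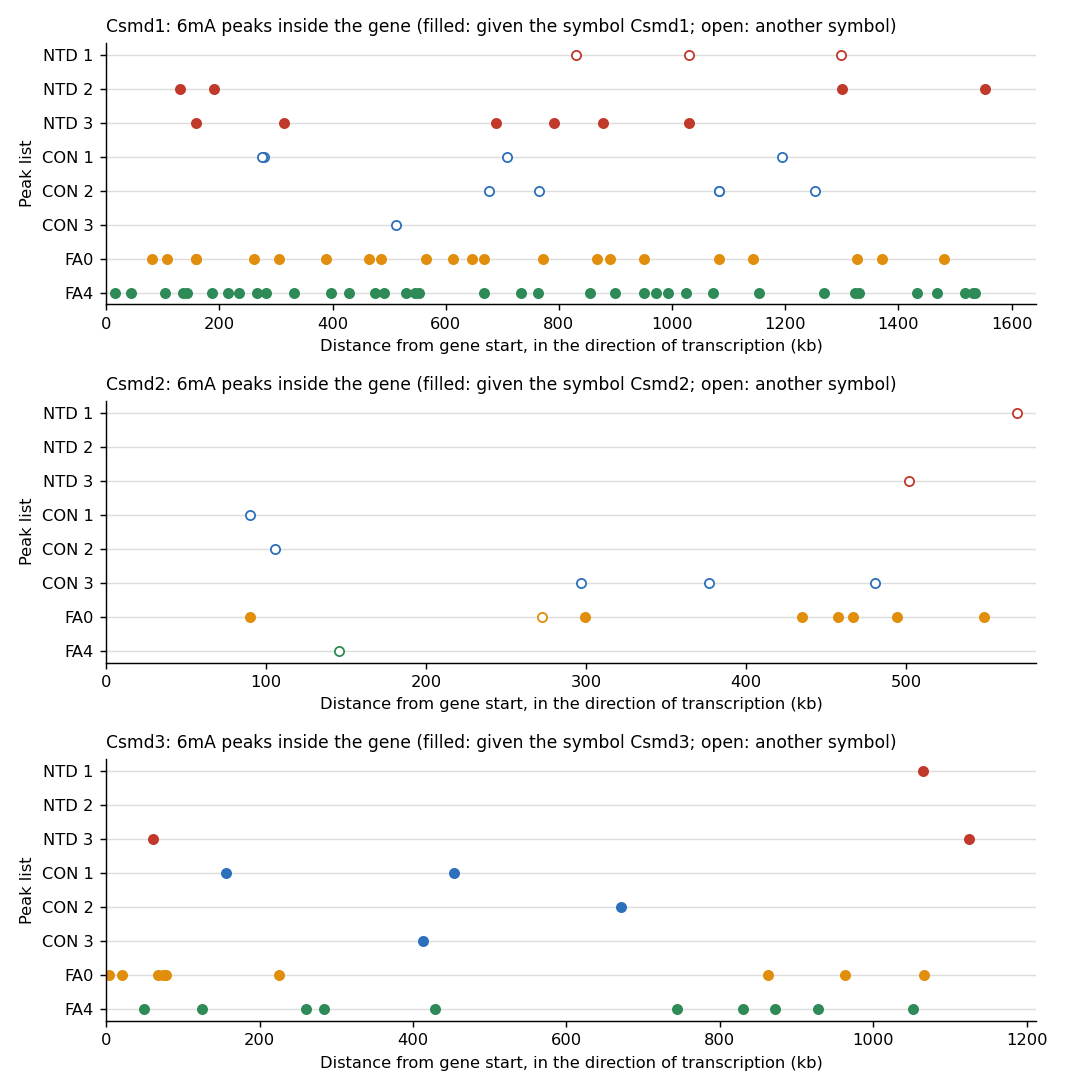
Position of every peak inside Csmd1, Csmd2 and Csmd3, in kb from the gene start in the direction of transcription, with 1 line per list. Filled points carry the gene's own symbol and open points another one; in brain, Csmd1 points are filled in NTD 2 and NTD 3 and open in the other 4 lists, and peaks close together overlap.

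The strongest cell peaks of each member were modest. In Csmd1, the FA0 peak of highest fold lay at 17146559 to 17146825 (11 tags, 3.85-fold enrichment, q-value 0.0676), followed by 16762643 to 16763054 (10 tags, 3.53-fold). The next place was tied between 17071658 to 17071991 and 17375885 to 17376167, each with 9 tags and 3.21-fold enrichment. In FA4 the Csmd1 order was 16635728 to 16636069 (10 tags, 3.65-fold), 16204063 to 16204493 (10 tags, 3.52-fold) and 16982109 to 16982370 (9 tags, 3.44-fold). None of these intervals overlapped one of the other condition.

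In Csmd3, the FA4 peak at 48508027 to 48508323 on chromosome 15, in an intron 284 kb from the start, had 12 tags, 4.54-fold enrichment and a q-value of 0.00619. It was the only one of the 124 peaks inside the 3 genes with a q-value of at most 0.05. The next in FA4 was 47961932 to 47962358 with 10 tags and 3.84-fold enrichment, after which 5 peaks tied at 8 tags and 3.14-fold. In FA0 the Csmd3 order was 48789090 to 48789410 (10 tags, 3.53-fold), 47929737 to 47929970 (10 tags, 3.49-fold) and 48566696 to 48566942 (9 tags, 3.21-fold). The first of these lay 3.31 kb inside the gene start and was classed as intron.

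In Csmd2, the FA0 peak of highest fold lay at 128535268 to 128535598 on chromosome 4 with 9 tags and 3.21-fold enrichment, followed by 4 peaks tied at 8 tags and 2.89-fold. The FA4 peak, at 128132011 to 128132283, had 7 tags and 2.80-fold enrichment and was given to Csmd2os. An FA0 peak inside the gene, at 128259046 to 128259325 with 8 tags and 2.85-fold enrichment, was classed as promoter, that of the nested genes Hmgb4 and Hmgb4os.

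Of the 148 peaks by symbol, 99 were classed as intron, 45 as intergenic, 3 as upstream and 1 as exon, and none as promoter. The exon peak was in Csmd1 in FA4, at 16002479 to 16002795, with 6 tags and 2.12-fold enrichment, the lowest fold of any FA4 peak in the gene. It lay 1533 kb from the gene start, near the 3′ end of the gene. Over the cell lists, 3.19% (FA0) and 3.07% (FA4) of all peaks had a promoter entry.

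Few places were marked in more than 1 list. The FA0 and FA4 lists shared 2 places in the 3 genes, both in Csmd1: 16584156 to 16584385 in FA0 with 16584239 to 16584519 in FA4 (147 bases in common), and 16867831 to 16868169 with 16867721 to 16867980 (150 bases in common). That is 2 of 39 member peaks in FA0 (5.13%, exact interval 0.627% to 17.3%) and 2 of 48 in FA4 (4.17%, 0.509% to 14.3%). On chromosome 8 the shared share was 4.25% and 4.08%, and over all peaks 1.8% and 3.44%, all within the members' intervals.

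Between brain and cells there were 3 overlaps. A CON 2 peak at 16452876 to 16453112 in Csmd1 shared 210 bases with an FA0 peak and was given to Gm16347 in the brain list and to Csmd1 in the cell list. An NTD 3 peak at 17376587 to 17376873 shared 124 bases with an FA0 peak, and both were given to Csmd1. In Csmd2, a CON 1 peak at 128076350 to 128076575 shared 39 bases with an FA0 peak and was given to Csmd2os, the FA0 peak to Csmd2. Within brain the overlap of NTD 1 and NTD 3 described above was the only one in the 3 genes, and no place was shared by an NTD and a CON list.

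The 2 longest members were set beside other very long genes. Among the other 57 protein-coding genes of at least 1 Mb, 21 had a higher peak density than Csmd1 in FA0 and 5 in FA4, where the median gene had 10.0 and 5.69 peaks per Mb. Csmd3 was exceeded by 39 of these genes in FA0 and by 11 in FA4. In brain the number of these genes above Csmd1 ranged from 5 (CON 1) to 41 (CON 3). Among the 17 protein-coding genes of at least 0.5 Mb on chromosome 8, Csmd1 had the lowest density in FA4, at 22.5 peaks per Mb. The genes next above Csmd1, Psd3 and Zfhx3, had 24.9 each. In FA0 only Pard3 (10.9) and Fam155a (12.3) were lower than Csmd1 (13.4), and the highest was Marchf1 at 36.3.

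The genes of at least 0.5 Mb whose densities over the 8 lists were most like those of each member were named by the smallest mean absolute difference in log2 relative density, computed with 0.5 added. For Csmd1 these were Trpm3, an ion channel gene on chromosome 19 (0.170), Ppargc1a, a transcriptional coactivator gene of energy metabolism (0.456), and Pkhd1, the fibrocystin gene (0.472), where the median gene stood at 0.846. Trpm3 had 14 peaks in FA0 and 19 in FA4 over 0.858 Mb. For Csmd2 they were Enox1 (0.324), Rims1, a presynaptic scaffold gene (0.415), and Nrg3, a neuregulin gene (0.434), and for Csmd3 they were Malrd1 (0.412), Adgrv1 (0.438) and Ptprt, a receptor phosphatase gene (0.442). Their medians over genes were 0.931 and 0.872. The brain part of this measure rests on 0 to 6 peaks per member and list.

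Other genes with CUB or sushi domains were set beside the members. Of 33 such genes, 22 (66.7%) had at least 1 peak inside in FA0 and 14 (42.4%) in FA4, against 32.9% and 19.8% of all 21887 protein-coding genes; their median length was 64.2 kb against 17.2 kb. Their densities, 13.8 and 11.2 peaks per Mb, lay beside 16.2 and 7.81 over all protein-coding genes. The genes with most cell peaks were Tll1, an astacin metalloprotease gene, with 5 in FA0 and 6 in FA4, Nrp1, a semaphorin and VEGF receptor gene, with 1 and 5, Neto2, an auxiliary subunit gene of kainate receptors, with 1 and 4, and, level with Neto2 at 5 peaks in all, Cubn, the cubilin gene, with 3 and 2, and Tll2, another astacin metalloprotease gene, with 2 and 3. Tll1, Nrp1 and Neto2 lie on chromosome 8, as Csmd1 does, Cubn on chromosome 2 and Tll2 on chromosome 19. In the brain lists, 4 to 8 of the 33 genes (12.1% to 24.2%) had a peak, against 4.41% to 9.85% of all protein-coding genes.

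Genes of the complement cascade itself were close in length to the median protein-coding gene, at 17.6 kb. Of 30, 8 (26.7%) had a peak in FA0 and 6 (20%) in FA4, against the 32.9% and 19.8% of all protein-coding genes given above, and 0 to 4 (0% to 13.3%) had one in a brain list. Their densities were 18.4 and 9.83 peaks per Mb in FA0 and FA4. C6, a component of the membrane attack complex on chromosome 15, had 3 and 2 cell peaks, and C8b, another component on chromosome 4, had 4 and 0. The contactin-associated protein genes, which encode neuronal adhesion proteins and range from 16.1 to 2241 kb in length, held peaks in 6 of 7 cases in both cell lists, at 22.2 peaks per Mb in FA0 and 10.4 in FA4. Cntnap2 had 41 and 24, and Cntnap5a had 48 and 6, beside 22 and 37 in Csmd1.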

How the data were processed

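DNA of embryo brain and of Sv/129 stem cells was sonicated and immunoprecipitated with a 6mA kit, with a part kept as input, per the labels' protocols. The submitters' processing notes list cutadapt 1.9.2, Bowtie2 2.2.4 and mm10, without settings. The program that called the peaks was likewise not given in the sources used here. Per the file headers, peaks were called per immunoprecipitation, in brain against 1 input per group. Case was taken as NTD, as the only other brain group beside Control. The tag count deposited for each peak is whole and not normalized, the deposited fold is a ratio over input, and the authors gave the p-value and q-value as −log10.

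Each list repeats a peak for every transcript assigned to it, and these entries were reduced to 1 per peak and symbol. Gene bounds came from a RefSeq table of GRCm38.p6, the assembly of mm10. A peak was inside a gene if its midpoint was. Densities left out the first 3 Mb of each chromosome and ended at its last annotated gene. Intervals are 95% exact (Clopper-Pearson) and cover counting error only; brain widths and positions were compared by exact permutation, and peak numbers were not tested. Overlap meant at least 1 shared base. Single peaks were named by rank of fold, by class and by overlap with other lists, together with the first and last of a gene. The members, gene lists and tests were chosen with earlier results of these data known. The counts of peaks inside genes and their FA4 to FA0 ratio were run on simulated lists with peaks added in known genes. Positions along the gene and densities against the chromosome were not checked in this way. Tools were Python 3.11.15, pandas 2.3.3, scipy 1.17.1 and matplotlib 3.10.9. Alternatives were the authors' assignment, a q-value of at most 0.05, a fold of at least 5, other denominators, lists cut to equal length by fold, a larger overlap and leaving out each brain list. No sequence is shown.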

Additional observations from a re-analysis of the deposited data

How the results depend on the processing

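Of 87 values under alternative settings, 77 stayed within the spread or interval of the reported value or on the same side of the test's threshold, 9 moved beyond it and 1 reversed. The brain width and position tests could not cross a threshold below 0.1, the smallest p of their exact permutation, or 0.25 in pairs. Their alternatives are therefore among the 77 by construction. Staying within the spread did not mean keeping a direction. In all, 17 values, 8 of them in brain, lay on the other side of no change. Of these 17, 10 were among the values that stayed within the spread, 7 of them in brain. With peaks counted by the authors' symbol, the ratio of NTD to CON over the 3 genes in brain was 3.2 in place of 0.947. That count leaves out peaks given to nested genes and includes peaks outside the gene. In cells the ratio to the rest of the chromosome was 1.18 for Csmd1 in FA4, 1.12 for Csmd3 in FA0 and 1.79 for Csmd3 in FA4. No cell peak inside Csmd1 or Csmd3 carried another symbol, so these ratios rose through peaks before the gene start. Against all other autosomal sequence, the rest of chromosome 8 included, Csmd1 stood at 0.837 in FA0 and 2.71 in FA4. At a q-value of at most 0.05, Csmd3 in FA4 stood at 2.57, on 1 peak. With peaks at the common background only, added after the data had been seen, Csmd1 in FA0 stood at 0.830 and its FA4 to FA0 share of list reversed to 0.542. As a share of the peaks of its own chromosome that ratio was 1.61. With each brain list left out in turn, the lowest exact permutation test p = 0.1 was that of the width difference without CON 1. Leaving out a brain list could not bring the width and position tests below 0.1, so no conclusion is drawn from their p-values. The ratio of NTD to CON then ranged from 0.963 to 1.73 for Csmd1, from 0.3 to 0.667 for Csmd2, from 0.375 to 1.13 for Csmd3 and from 0.711 to 1.11 for all 3. Lists cut to equal length gave ratios of 0.8, 0.667, 0.25 and 0.583, and shares of the own chromosome 0.910, 0.263, 0.418 and 0.616. The width difference ranged from −68.5 bases without CON 1 to −11.7 without CON 2 and was 1.23 bases with the authors' symbols, and the difference in the first 50% of the gene ranged from −31.2 to −3.41 points. In cells, Csmd2 in FA0 (0.996) turned to 1.45 at equal length and 1.31 at the common background, and Csmd3 in FA4 (0.930) to 1.25 at the common background. A fold of at least 5 left no peak in the genes, and the brain ratio of Csmd1 or Csmd2 alone has no value by symbol because CON is at 0. The list numbers are shared by NTD and CON but nothing in the labels pairs them; the replicate block gave an exact paired permutation p = 0.25 for the width difference of −44.8 bases and p = 1 for the share in the first 50% of the gene, where 0.25 is the smallest that 3 pairs allow. Limits are the 1 list per cell condition, the 0 to 6 peaks per gene and brain list, and the 6 to 12 tags behind each peak.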
